A study of Homo sapiens with 6 samples.

Results

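The integrated stress response of HT-1376 cells, an established human bladder carcinoma line, was examined through 10 genes of its ATF4 branch after knockdown of SHMT2, the mitochondrial serine hydroxymethyltransferase. The genes were taken by name as ATF4, ATF3, ATF5, DDIT3, CEBPB, ASNS, TRIB3, CHAC1, SESN2 and DDIT4, and each symbol was matched to 1 of the 63241 listed Ensembl genes through GENCODE release 44. Both groups were HT-1376 cells, transfected with Lipofectamine and collected 24 h later, with a non-targeting siRNA in siNC (3 libraries) and with 1 chosen siRNA against SHMT2 in siSHMT2 (3 libraries); the labels give the genotype as WT and as SHMT2 knockdown. The paper calls the samples biological replicates, and the labels do not say that they came from separate cultures. The question was whether ATF4 and its target genes were higher in siSHMT2 at this single time point. The counts raise a doubt about their strand, set out before the results, so that no value here can be taken as an mRNA level.

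In the integrated stress response, 4 kinases that sense amino acid shortage, ER stress, double-stranded RNA or heme loss phosphorylate the translation factor eIF2. General translation then slows, while translation of the ATF4 mRNA increases through upstream reading frames in its leader, so that the ATF4 mRNA and the ATF4 protein need not change together. ATF4 activates genes for amino acid synthesis and uptake, and it is known to respond to mitochondrial stress and to raise serine and one-carbon enzymes, among them SHMT2 itself. RNA-seq measures only the mRNA side of this pathway.

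ATF4 dimers bind a composite C/EBP-ATF element, and the letters TGATGNAA were searched on both strands of the RefSeq promoter windows (GRCh38.p14, 250 bases before to 50 after a start). The motif search found a match in 3 of the 19 windows of the 10 genes, and 3.62% of all 35116 windows held one. The 3 matches are shown because they are the only ones in the windows of the 10 genes. Each lies before the RefSeq start of its window, and those of ASNS and CHAC1 lie inside the longer gene spans of GENCODE. The capitals mark the match, each line is read 5′ to 3′ on the strand that carries the motif, and distances run from the start to the first base of the match on the gene's strand.
ATF3, chr1:212565206-212565233, plus strand, position -191: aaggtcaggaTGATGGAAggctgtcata
ASNS, chr7:97872459-97872486, minus strand, position -68: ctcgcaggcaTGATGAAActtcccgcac
CHAC1, chr15:40953252-40953279, minus strand (opposite to the gene), position -209: ctggcaggagTGATGCAAcggcagggga
A match describes letters in a window and is no evidence of binding in these cells.

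The tables held 533689 to 890574 counts per library. This is a small part of the sequenced reads that the paper describes for each sample. The kit keeps strand, and the strand setting of the counting is not named. Genes that lie opposite to abundant transcripts held many of the counts. Of the 20 genes with the most counts, 14 share exonic bases with a protein-coding gene on the opposite strand, and each of the 14 had more counts than that partner. BEST1, known from the retina, had 61893 counts and FTH1, the ferritin heavy chain gene on the other strand, had 1104. TUBA1B-AS1 had 100834 counts against 1488 for the tubulin gene TUBA1B, and TALAM1, the antisense partner of MALAT1, had 138110. Over 976 pairs of a lncRNA and a coding gene whose exons overlap on opposite strands (at least 100 shared bases and 20 counts per gene), the lncRNA held more counts in 588, and lncRNA genes took 26.1% to 27.2% of the counts of a library. These genes were chosen after their values were seen. With a stranded kit, counts set to the opposite strand would have this form. The setting itself could not be checked, and the counts and FPKM below are given as deposited, with no claim that they measure the mRNA of the gene named.

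SHMT2 (ENSG00000182199) had 28, 15 and 20 counts in siNC and 9, 2 and 5 in siSHMT2. The log2 fold change was -1.78 (SE 0.48), with adjusted p = 0.93 (quasi-likelihood test of edgeR with p-values adjusted by Benjamini-Hochberg over 7207 genes). No tested gene had a smaller adjusted p. By library, its FPKM was 10.0, 6.65 and 6.57 in siNC and 4.94, 0.715 and 1.80 in siSHMT2, without overlap. The paper reports that this siRNA lowered SHMT2 RNA by RT-qPCR and SHMT2 protein by Western blot. In the principal components of log2 CPM, siSHMT2 replicate 1 stood apart on the first (score 33.7, the others -12.5 to -1.02) and siNC replicate 2 on the second (28.3, the others -15.3 to 1.13). They were also the libraries with the fewest counts, 533689 in siSHMT2 replicate 1 and 660559 in siNC replicate 2 (the others 815061 to 890574). The part of depth in this separation was not tested. Without both libraries the log2 fold change was -2.63 for SHMT2, -0.12 for ATF4, -0.28 for ATF3, -0.07 for ATF5, 0.34 for DDIT3 and -0.16 for CEBPB; DDIT4 and TRIB3 follow below. All 12 epithelial markers had counts, with UPK2 at 1 count in total. Of 10 markers of other cells, PTPRC, CD3E, VWF, PDGFRB and DES were at 0 in every library. The other 5 had counts, with COL1A2 at 62 in total and present in all 6 libraries, CD68 and COL1A1 at 7 each, MYH11 at 3 and PECAM1 at 2.

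The counts of none of the 10 genes differed detectably between siSHMT2 and siNC, which does not show that their mRNA was alike. Of the 4 genes that passed the count filter (ATF4, ATF3, TRIB3 and DDIT4), 0 had an adjusted p under 0.05 and 0 an unadjusted p under 0.05 (quasi-likelihood test of edgeR), also with DESeq2 and limma. In all 7207 tested genes these shares were 0.0% and 3.84%. In FPKM (the authors' values, scaled to gene length and library counts), the 3 siSHMT2 values and the 3 siNC values overlapped for each of the 10 genes. For ASNS and CHAC1 the overlap was only a shared value of 0. Of the 20807 genes with a count and a listed length, 7.0% had groups that did not overlap. With so few genes, 0 of 10 cannot be told apart from this share. The median log2 fold change of the 4 tested genes was -0.11, beside -0.001 over all tested genes. The counts were low, and the 95% interval of ATF4 ended at a log2 fold change of 0.13, while for ATF3 and DDIT4 it reached a rise of 1.90-fold and 1.97-fold.

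**Figure D1:**
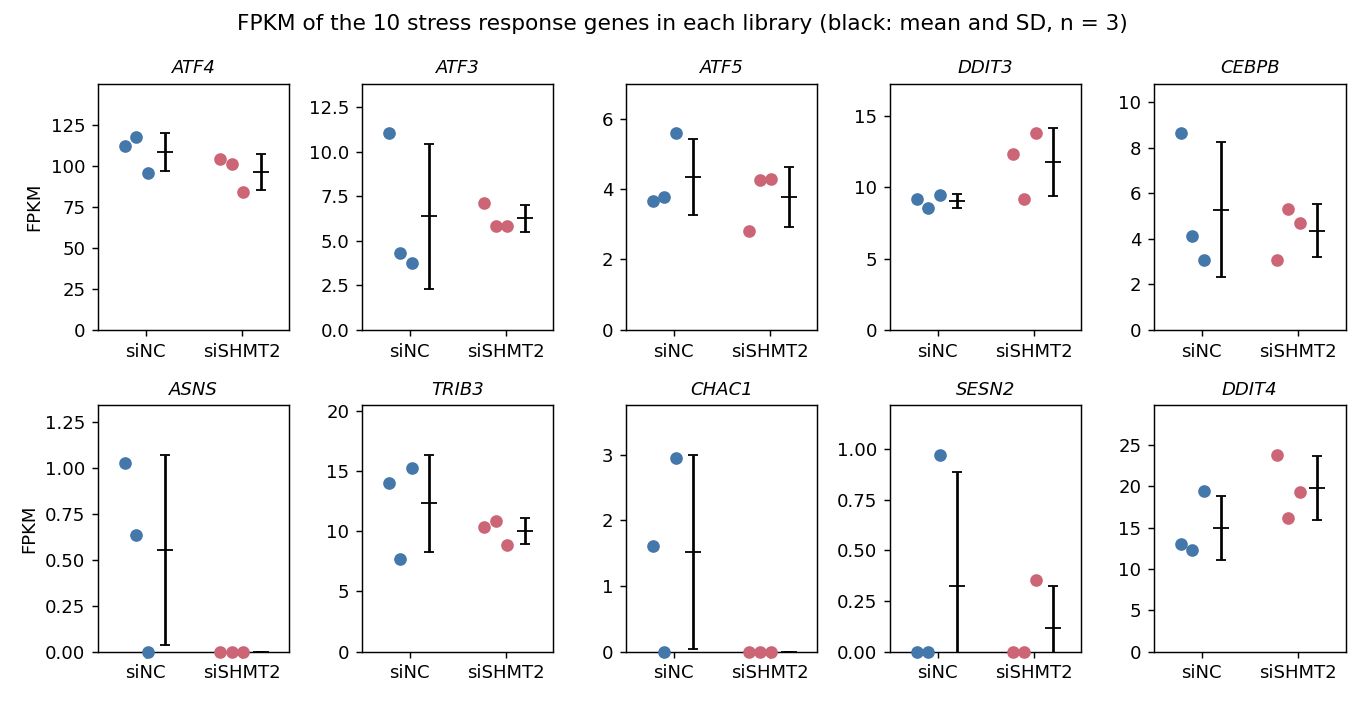
FPKM (vertical axes, linear from 0, different for each gene) of the 10 genes in the 3 siNC and 3 siSHMT2 libraries, 1 point per library, with the mean and SD (n = 3) in black. The points of the groups overlap for every gene, ATF4 is the highest at 83.9 to 118, and ASNS and CHAC1 are at 0 in all 3 siSHMT2 libraries.

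ATF4 (ENSG00000128272, chromosome 22 from 39519695 to 39522683 of GRCh38, plus strand) encodes the bZIP factor at the centre of the response. It had 185, 157 and 172 counts in siNC and 112, 167 and 138 in siSHMT2. By library, FPKM was 112, 118 and 95.7 in siNC and 104, 101 and 83.9 in siSHMT2, so that the groups overlapped through siNC replicate 3. The mean FPKM was 108 ± 11.5 (SD, n = 3) in siNC, and siSHMT2 had 96.3 ± 10.8 (SD, n = 3). The exact permutation test on FPKM, two-sided, gave p = 0.3. The log2 fold change was -0.17 (95% interval -0.47 to 0.13), with adjusted p = 1.00 (quasi-likelihood test of edgeR). No exon of another gene overlapped ATF4. The annotation holds 9 genes named as pseudogenes of ATF4 or ASNS, and all had 0 counts.

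ATF3, a bZIP factor induced by ATF4 and by many other stresses, had 19, 6 and 7 counts in siNC and 8, 10 and 10 in siSHMT2. By library, FPKM was 11.05, 4.32 and 3.74 in siNC and 7.13, 5.81 and 5.83 in siSHMT2, and siNC replicate 1 was above all other libraries. The log2 fold change was -0.04 (95% interval -1.01 to 0.93). It was 0.61 without siNC replicate 1 and 0.015 without siSHMT2 replicate 3, so its direction was not settled. No other gene overlapped the exons of ATF3.

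DDIT3 encodes CHOP, the bZIP factor that links prolonged stress to cell death. It had 8, 6 and 9 counts in siNC and 7, 8 and 12 in siSHMT2, too few for the filter. By library, FPKM was 9.17, 8.51 and 9.47 in siNC and 12.3, 9.16 and 13.8 in siSHMT2. Replicates 1 and 3 of siSHMT2 lay above the siNC libraries and replicate 2 lay among them. In the fit of all 20836 genes with a count, the log2 fold change was 0.36 (95% interval -0.65 to 1.37), and the upper end is a rise of 2.59-fold. Exons of genes on the opposite strand covered 31.6% of the exonic bases of DDIT3. MARS1, the cytosolic methionyl-tRNA synthetase, shared 355 of these bases and had 251 counts in total against 50 for DDIT3, with a log2 fold change of -0.12. MBD6 shared 58 of them and had 66 counts in total. The part of MARS1 and MBD6 in the DDIT3 counts was not tested.

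ATF5, the close relative of ATF4 that is tied to the mitochondrial unfolded protein response, had 6, 5 and 10 counts in siNC and 3, 7 and 7 in siSHMT2. Its FPKM was 4.34 ± 1.09 (SD, n = 3) in siNC and, in siSHMT2, 3.78 ± 0.848 (SD, n = 3), with overlapping groups. The log2 fold change in the fit of all genes with a count was -0.17 (95% interval -1.32 to 0.98). NUP62, a nuclear pore gene on the opposite strand, shared 565 exonic bases (19.5%) with ATF5 and had 274 counts in total against 38 for ATF5, and its part was not tested.

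CEBPB, a C/EBP factor that can dimerise with ATF4, had 13, 5 and 5 counts in siNC and 3, 8 and 7 in siSHMT2. Its FPKM was 5.27 ± 2.97 (SD, n = 3) in siNC, where replicate 1 was highest at 8.64, and 4.35 ± 1.16 (SD, n = 3) in siSHMT2. The log2 fold change in the fit of all genes with a count was -0.23 (95% interval -1.34 to 0.88) and 0.33 without siNC replicate 1. Its antisense lncRNA CEBPB-AS1 had 4 counts in total.

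Of the 5 ATF4 target genes among the 10, DDIT4 had the highest mean FPKM in both groups, 14.9 in siNC and 19.8 in siSHMT2. It encodes REDD1, an inhibitor of mTORC1, and had 21, 16 and 34 counts in siNC and 25, 26 and 31 in siSHMT2. By library, FPKM was 13.1, 12.3 and 19.4 in siNC and 23.8, 16.2 and 19.3 in siSHMT2. Replicates 1 and 2 of siNC were the lowest of the 6 libraries, and siNC replicate 3 lay inside the siSHMT2 range. The log2 fold change was 0.37 (95% interval -0.24 to 0.98), with an unadjusted p of 0.22 and adjusted p = 1.00 (quasi-likelihood test of edgeR). Leaving out siNC replicate 3 gave 0.59, and leaving out siNC replicate 2 and siSHMT2 replicate 1 together gave 0.17. DDIT4 also responds to hypoxia, p53 and glucocorticoids.

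TRIB3, a pseudokinase that ATF4 and CHOP induce and that restrains ATF4 in turn, had 27, 12 and 32 counts in siNC and 13, 21 and 17 in siSHMT2. By library, FPKM was 14.0, 7.71 and 15.3 in siNC and 10.3, 10.9 and 8.85 in siSHMT2. Replicates 1 and 3 of siNC were the highest of all and siNC replicate 2 the lowest of all. The log2 fold change was -0.31 (95% interval -0.99 to 0.36), and a rise over 1.28-fold lay outside the interval. Without siNC replicate 2 and siSHMT2 replicate 1 it was -0.52.

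The other ATF4 target genes among the 10 had hardly any counts, which does not show that they were not expressed. ASNS, asparagine synthetase, had 2, 1 and 0 counts in siNC and 0 in each siSHMT2 library. CHAC1, which degrades glutathione, had 2, 0 and 4 counts in siNC and 0 in each siSHMT2 library. SESN2, a leucine sensor upstream of mTORC1, had 0, 0 and 3 counts in siNC and 0, 0 and 1 in siSHMT2. A count of 0 over the 3 siSHMT2 libraries allows up to 1.38 CPM (3 counts, counting error only), and 3 counts over siNC amount to 1.27 CPM, so no fold change is given for ASNS or SESN2, and CHAC1 is described by its counts. In the fit of all genes with a count, CHAC1 had an unadjusted p of 0.045 and an adjusted p of 0.84 (quasi-likelihood test of edgeR), and it was the single gene of the 10 with an unadjusted p under 0.05, beside 3.35% of all genes in that fit. A lncRNA gene on the same strand (ENSG00000284707) shared 2415 exonic bases (49.3%) with ASNS and had 1 count in total. No other gene overlapped the exons of CHAC1, SESN2, TRIB3 or DDIT4.

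**Figure D2:**
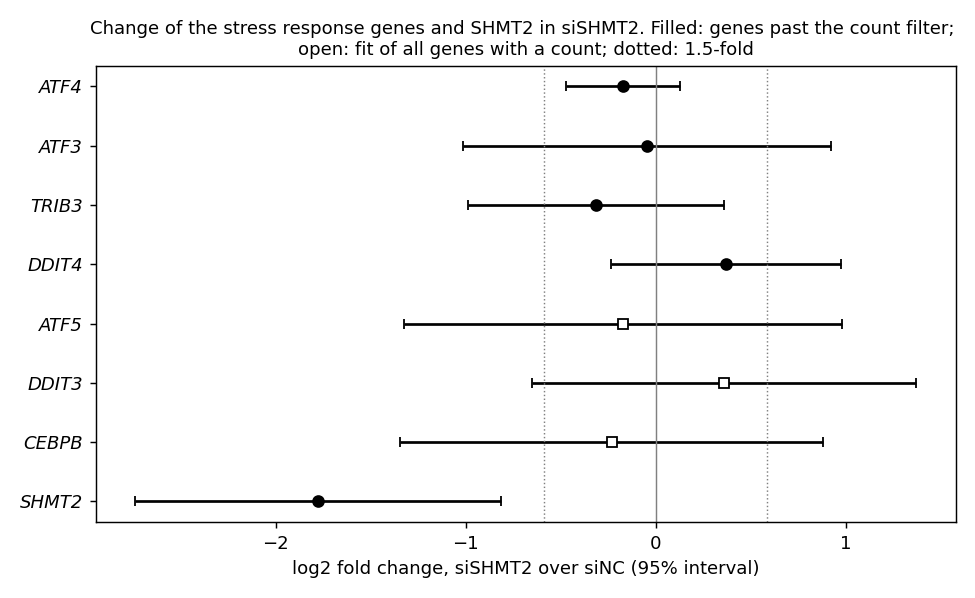
Log2 fold change of siSHMT2 over siNC (horizontal axis) with its 95% interval for 7 of the 10 genes and SHMT2. Filled circles are genes past the count filter, open squares come from the fit of all genes with a count, and dotted lines mark a 1.5-fold change. All 7 intervals cross 0, from the narrowest for ATF4 (-0.47 to 0.13) to those of ATF5, DDIT3 and CEBPB, and the interval of SHMT2 lies below 0.

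Per length, the deposited value of ATF4 was far above the other 9 genes, with a mean over the 6 libraries of 102 FPKM (83.9 to 118) against 17.4 (12.3 to 23.8) for DDIT4, the next in order. From DDIT4 on the ranges of neighbours overlapped, in the order DDIT4, TRIB3 (mean 11.2), DDIT3 (10.4), ATF3 (6.31), CEBPB (4.81), ATF5 (4.06), CHAC1 (0.761), ASNS (0.277) and SESN2 (0.221). The counts of the 10 genes together came to 34.6, 31.5 and 31.0 per 100000 counts in siNC and to 32.0, 30.2 and 27.4 in siSHMT2. ATF4 held 67.0% of these counts in siNC and 65.1% in siSHMT2. Without ATF4 the sums came to 11.98, 7.72 and 11.7 per 100000 in siNC and 11.1, 9.77 and 10.4 in siSHMT2, and the siSHMT2 libraries lay within the siNC range.

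As a description, the genes whose log2 CPM followed ATF4 most closely over the 6 libraries were ENSG00000261063 (Pearson's r = 0.99), HDGF (0.98), LIMD1-AS1 (0.97), LHFPL5 (0.97) and TAGLN (0.97), and 61 of the 7206 other tested genes had an r over 0.9. None of the 5 is on the stress response lists used here. Of the tested members, ATF3 had an r of 0.18 with ATF4, TRIB3 -0.13 and DDIT4 -0.60. The points share their libraries, and 6 points leave room for such values among so many genes.

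The rest of the pathway was described through 90 further genes in 8 lists, of which 73 were tested. Of the 73 genes, 0 had an adjusted p under 0.05 (quasi-likelihood test of edgeR), 34 had a log2 fold change above 0 and 39 below, and the median was -0.04. Over all tested genes 49.8% were above 0, and the lists below are too short to be told apart from that share. An unadjusted p under 0.05 was reached by 2 of the 73, both lower in siSHMT2, where 1.9% of all tested genes were lower by this rule and 1.94% higher.

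Upstream of ATF4, EIF2AK1 (HRI, the kinase reached by the mitochondrial relay through OMA1 and DELE1) had the highest FPKM of the kinases and the smallest p of its list. By library, its FPKM was 102, 102 and 90.6 in siNC and 64.6, 99.7 and 90.4 in siSHMT2, with a log2 fold change of -0.19 (unadjusted p = 0.16, quasi-likelihood test of edgeR). Only siSHMT2 replicate 1 lay well below the others. Opposite-strand exons covered 9.69% of the exonic bases of EIF2AK1, 3.95% of EIF2AK2, 3.77% of EIF2AK3 and 0% of EIF2AK4. Their part in this order of the kinases was not tested. DELE1 had 37 counts and OMA1 11 counts in total, under the filter. EIF2S1, the eIF2 subunit that is phosphorylated, had a log2 fold change of -0.07 and an FPKM of 49.0 ± 0.882 (SD, n = 3) in siNC and, in siSHMT2, 46.7 ± 1.96 (SD, n = 3). PPP1R15A (GADD34), the inducible subunit of the eIF2 phosphatase and a target of the pathway, had FPKM values of 9.02, 7.91 and 9.32 in siNC and 8.07, 4.88 and 5.28 in siSHMT2, with a log2 fold change of -0.57 (95% interval -1.27 to 0.14). Replicates 2 and 3 of siSHMT2 lay below the siNC libraries and replicate 1 among them.

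Of the amino acid transporters, all 8 were tested, 4 above and 4 below 0, within -0.11 to 0.23. SLC7A5, the large neutral amino acid transporter LAT1, had a log2 fold change of -0.05, and SLC6A9, the glycine transporter GlyT1, had 0.23 (95% interval -0.43 to 0.89) and the smallest p of the list.

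The lists of biosynthetic targets held both genes with an unadjusted p under 0.05. PSAT1, the aminotransferase of serine synthesis, had FPKM values of 11.1, 12.4 and 11.2 in siNC and 4.25, 4.43 and 8.34 in siSHMT2, and each siSHMT2 library lay below each siNC library. Its log2 fold change was -0.98 (95% interval -1.78 to -0.17), with an unadjusted p of 0.018 and adjusted p = 1.00 (quasi-likelihood test of edgeR). TARS1, the threonyl-tRNA synthetase, had FPKM values of 50.8, 42.5 and 42.0 in siNC and 31.6, 35.6 and 34.4 in siSHMT2, again without overlap, with a log2 fold change of -0.40 and adjusted p = 1.00 (quasi-likelihood test of edgeR). Groups that did not overlap in log2 CPM were seen for 4 of the 73 genes in each direction, beside 4.65% (higher) and 4.55% (lower) of all tested genes. NARS1, the synthetase with the highest FPKM, had a log2 fold change of 0.26, and PYCR1 of proline synthesis had -0.24. In these lists 0 of the 4 tested serine, one-carbon and proline genes and 6 of 13 tRNA synthetase and tRNA export genes were above 0, beside 49.8% of all tested genes. The serine list has 3 more genes under the count filter, PSPH with 8 counts in total, ALDH1L2 with 21 and ALDH18A1 with 46. In the fit of all genes with a count, their log2 fold changes were 1.52, -0.27 and 0.17.

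Among other targets of ATF4 and CHOP, 4 of the 11 tested genes were above 0. GDF15, a stress-induced cytokine, had FPKM values of 9.93, 27.7 and 15.2 in siNC and 6.34, 12.4 and 9.96 in siSHMT2, with a log2 fold change of -0.79 (95% interval -1.63 to 0.04). The highest value came from siNC replicate 2, and the groups overlapped. SQSTM1, the autophagy receptor p62, had a log2 fold change of 0.03. FGF21, a secreted target, had 0 counts in every library.

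Of 14 tested ER chaperones and sensors, 6 were above 0, with a median of -0.11. CALR, calreticulin, had a log2 fold change of 0.13, and PDIA6, a disulfide isomerase, had -0.42 (95% interval -0.86 to 0.02). PDIA6 had 327 counts, and ATP6V1C2, which shares 1033 exonic bases with it on the opposite strand, had 26093. Of 7 tested mitochondrial chaperones and proteases, 5 were above 0, with a median of 0.16. DNAJA3, a mitochondrial J-domain protein, had FPKM values of 3.28, 3.61 and 4.69 in siNC and 8.39, 6.20 and 5.13 in siSHMT2 without overlap, with a log2 fold change of 0.72 (95% interval -0.11 to 1.56) and adjusted p = 1.00 (quasi-likelihood test of edgeR). HSPE1, the co-chaperonin, had 0.16.

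**Figure D3:**
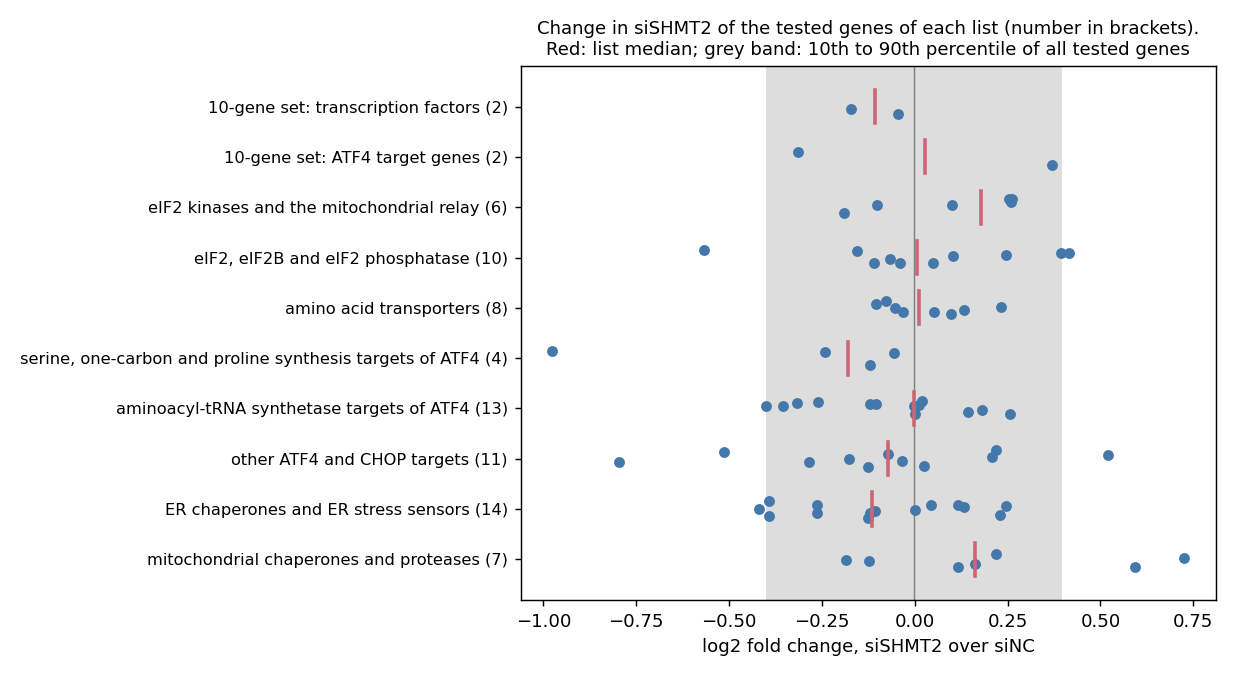
Log2 fold change of siSHMT2 over siNC (horizontal axis) for each tested gene of the 10-gene set and of the 8 further lists, 1 point per gene, with the list median in red. The grey band spans the 10th to 90th percentile of all 7207 tested genes (-0.40 to 0.39), and most points lie inside it, with PSAT1 farthest to the left at -0.98 and DNAJA3 farthest to the right at 0.72.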

How the data were processed

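The 6 mRNA libraries (3 siNC, 3 siSHMT2) were grouped by their titles. According to the paper and the submitters' notes, the authors checked reads with FastQC 0.11.9, trimmed them with fastp 0.23.4 and aligned them to GRCh38 with HISAT2 2.2.1; how reads were counted, on which strand and with which annotation is not given in the sources used here and the counts raise a doubt about the strand, described in the report. The deposited counts are unnormalized whole numbers per Ensembl gene. The FPKM values deposited by the authors equal the count divided by the listed gene length and the summed counts of the library; 91 genes without a length hold 11.8% to 13.1% of the counts.

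Counts were compared in R 4.3.3 with edgeR 4.0.16 (TMM, filterByExpr, quasi-likelihood test, two-sided, no replicate block, Benjamini-Hochberg over all genes tested). The 95% intervals used the standard error and the t quantile. Genes under the filter were taken from the same fit without it. Alternatives were DESeq2 1.42.0, limma 3.58.1 on log2 FPKM (pseudocount 1 or 0.1), RLE or no normalization, other filters, the block, and libraries left out. The comparison was tested on simulated data. The mean FPKM of the 2 groups was compared for each gene by an exact permutation test (smallest p with 3 against 3, 0.1). Replicates of a group differed by 1.78 to 2.63 times counting noise (chi-square per degree of freedom), so none was counted as a repeat of another. That check cannot tell whether the libraries came from separate cultures. The p-values measure the spread between these libraries.

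The 10 genes and all lists were chosen with earlier results of these data known. Named beside the 10 were SHMT2, the gene with the highest FPKM and the gene with the smallest p of each further list, genes overlapping the 10, and the 5 genes most like ATF4 by Pearson's r; other names were chosen after their values were seen. Promoter sequences came from RefSeq (GRCh38.p14), which had windows for all 10 genes. Figures were drawn with matplotlib 3.10.9.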

Additional observations from a re-analysis of the deposited data

How the results depend on the processing

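The count of the 10 genes with an adjusted p under 0.05 stayed at 0 in all 15 alternatives, and ATF4 (log2 fold change -0.28 to -0.06), TRIB3 (-0.52 to -0.15), DDIT4 (0.17 to 0.59) and DDIT3 (0.22 to 0.49) kept their direction in each alternative in which they were fitted. SHMT2 stayed lower (-2.63 to -1.31). The count of the 10 genes with an unadjusted p under 0.05 was 0, and 1 without the filter on low counts (CHAC1), where 10 instead of 4 of them were tested. The count of all genes with an adjusted p under 0.05 was 0, and from 0 to 1 with 1 library left out, the 1 gene being CNBP without siSHMT2 replicate 3. ATF3 turned from -0.04 to 0.11 and 0.14 with limma on FPKM (pseudocount 1 and 0.1), to 0.086 with the replicate block, to 0.61 without siNC replicate 1 and to 0.015 without siSHMT2 replicate 3 (-0.36 to 0.61 over the single libraries left out). CEBPB turned to 0.33 without siNC replicate 1 and ATF5 to 0.040 without siNC replicate 3. The cause was not tested for the changes of test. With 1 library left out the median of the tested genes ran from -0.22 to 0.06.

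No pairing of the samples by replicate number was detected, which does not show that they were unpaired. Same-numbered deviations from the group means correlated at -0.02, 0.05 and -0.01 over genes, and differently numbered ones at -0.03 to 0.04. The block changed no direction but that of ATF3 (ATF4 -0.17, TRIB3 -0.28, DDIT4 0.39, DDIT3 0.37, SHMT2 -1.77). The calls at an adjusted p under 0.05 stayed at 0 with the block. ASNS, CHAC1 and SESN2 were fitted only without the filter, and their fold changes are not given, since siSHMT2 holds at most 1 count of each. The fits with both outlying libraries left out, and those without the filter for ATF5, DDIT3 and CEBPB, were chosen after seeing the data. Few assigned counts limit the result, with 6 of the 10 genes under the filter, and the strand doubt about the counts applies to every value and setting.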
